A study of Mus musculus with 15 samples.

Results

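The genes described here are 10 inhibitors of mitogen-activated protein (MAP) kinase signaling in a mouse macrophage cell line loaded with silica nanoparticles (SNPs). They were chosen by symbol, as the dual-specificity phosphatases Dusp1, Dusp2, Dusp4, Dusp5, Dusp6 and Dusp16, the Sprouty genes Spry1 and Spry2, and the Sprouty-related genes Spred1 and Spred2. Each symbol was matched to 1 Ensembl identifier, which gave 10 of the 57186 genes in the count table, and all 10 were among the 19839 genes that were tested, whose counts over the 15 libraries summed to 10 or more. RAW 264.7 cells, a macrophage-like line from a mouse leukemia, received nonporous SNP100 (100 nm, 50 µg/mL), nonporous SNP50 (50 nm, 25 µg/mL), mesoporous MSNPs (100 nm, 200 µg/mL) or hollow mesoporous HMSNPs (100 nm, 200 µg/mL) for 6 h. Nontreated cells of the same line were the controls, and each of the 5 groups held 3 poly(A) RNA libraries. The doses were the highest nontoxic ones of each particle, so that SNP100, SNP50 and the porous particles differed in dose as well as in build. Each group carried a number of its own in the labels, which do not say what it stands for. This number and treatment cannot be told apart. The labels do not say whether replicates were separate cultures, and the p-values therefore measure the spread between these libraries, which may be technical.

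MAP kinase cascades carry signals from receptors at the cell surface to transcription in the nucleus through the kinases ERK, JNK and p38. The cascades switch on several of their own inhibitors. Dual-specificity phosphatases remove the activating phosphates from the MAP kinases themselves, whereas Sprouty and Spred proteins act upstream, between the receptor and Ras or Raf. In macrophages, ERK, JNK and p38 are activated by Toll-like receptors and by the growth factor CSF1, and DUSP1 is known as a brake on p38 and JNK in inflammatory responses.

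The libraries held between 29369934 and 42617812 counts on genes. Levels are given as CPM, the counts scaled to the size and composition of each library, and differences as fitted log2 fold changes from edgeR's quasi-likelihood test with its standard error (SE) and a Benjamini-Hochberg adjusted p over all tested genes. A gene was called where the adjusted p was under 0.05. All 9 macrophage markers examined, Adgre1, Cd68, Csf1r, Itgam, Lyz2, Cd14, Spi1, Fcgr1 and Ptprc, were above 1 CPM in every library. Of 17 markers of other cell types, 6 had 0 counts in every library and only S100a8 passed 1 CPM, at up to 3.20 CPM. Their summed level lay between 1.88 and 3.70 CPM in each group. Of the 6 that could be tested, Cd4 was called higher with MSNPs, at a mean of 0.330 CPM against 0.0391 CPM in the controls (adjusted p = 0.0143), and its part in the results was not tested. Control replicate 3 stood apart from the other controls. Against the mean of replicates 1 and 2, its log2 CPM differed by a median of 0.70 in the tenth of genes with the shortest transcripts and of -0.86 in the tenth with the longest. Between control libraries the counts of a gene gave a mean chi-square of 73.1 to 226, against 4.95 to 15.3 between libraries of a treated group. The value of 73.1 was that of Control replicates 1 and 2, which thus also differed more than libraries of a treated group. For the members, each difference from the controls that is printed here and changed its call or moved by over 1.5 times without Control replicate 3 is also given without it.

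The members differed widely in level in the nontreated controls. Per kilobase of canonical transcript, Spred1 was highest at 56.5 ± 12.9 CPM (SD, n = 3), followed by Dusp4 at 22.1 ± 8.83, Spred2 at 13.4 ± 3.78, Dusp1 at 8.94 ± 0.942 and Dusp6 at 7.51 ± 0.511 CPM per kilobase. Dusp2, Dusp5, Dusp16 and Spry2 lay between 1.08 and 4.28 CPM per kilobase, and Dusp5 and Dusp16 did not differ beyond their spread. Spry1 was close to undetected. It had 0, 0 and 1 counts in the controls, 2 to 4 counts in the SNP100 libraries, 0 counts in each SNP50 library, 1 to 8 in the MSNP libraries and 0 to 4 in the HMSNP libraries, so that no fold is given for it. The order per kilobase was the same in the SNP100-treated group except that Dusp16 and Dusp5 changed places. In the MSNP-treated group Dusp4, at 52.5 ± 1.83 CPM per kilobase, lay above Spred1 at 41.7 ± 0.613, and Dusp6 had moved from the fifth to the seventh place.

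**Figure D1:**
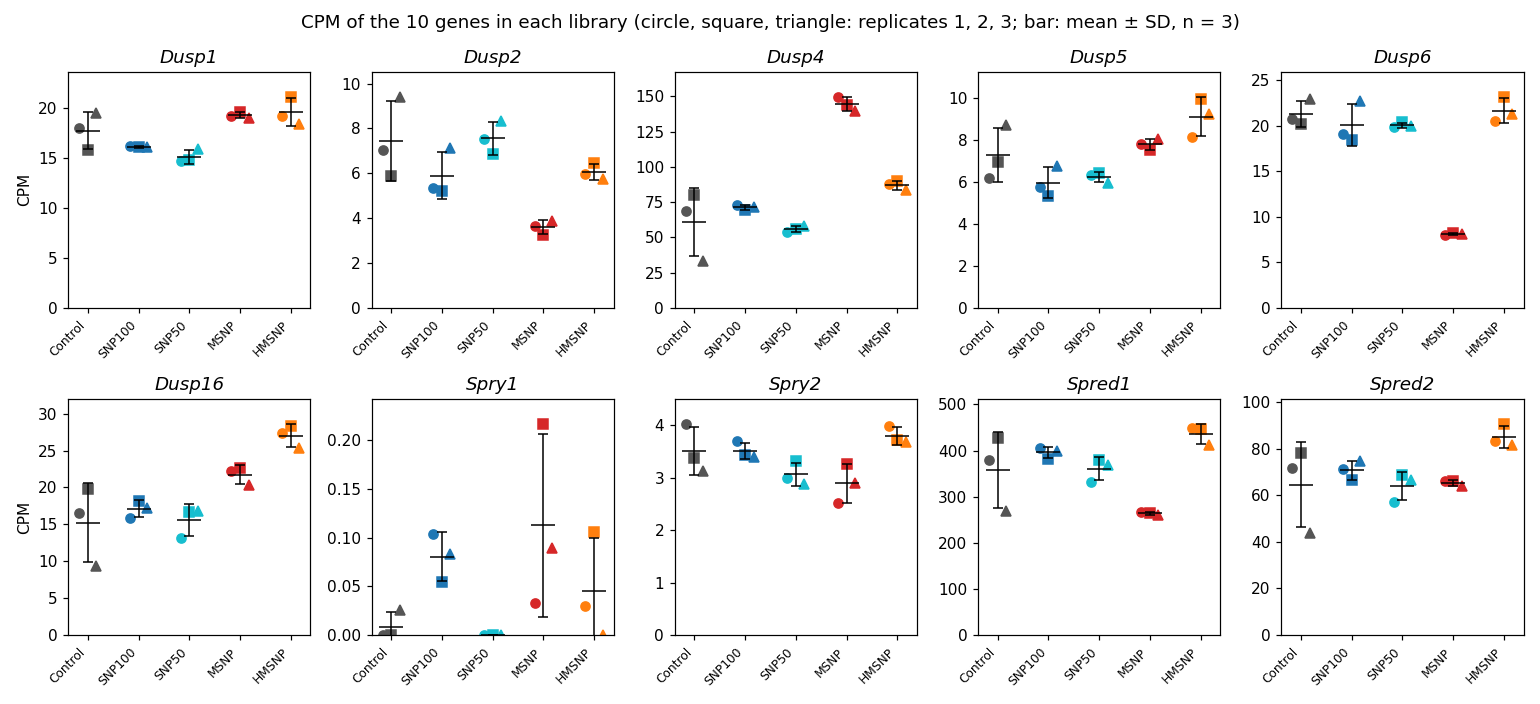
Level of each of the 10 genes in CPM (vertical axis, starting at 0, with its own scale in each panel) in the 5 groups, with a point for each library and a bar for the mean ± SD (n = 3, cut at 0 for Spry1). The 3 MSNP libraries lie below all others for Dusp6 (7.97 to 8.18 CPM) and Dusp2 (3.24 to 3.85 CPM) and above all others for Dusp4 (139 to 149 CPM), and Control replicate 3 lies far below the other controls for Dusp4, Dusp16, Spred1 and Spred2.

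The members moved in both directions with MSNPs. In the MSNP-treated group 4 of the 10 members were called against the nontreated controls, 1 higher and 3 lower, beside 22.8% of all tested genes called (11.8% higher and 11% lower). In the HMSNP-treated group 1 member was called, higher, beside 5.16% of all tested genes (2.46% higher and 2.7% lower). Here 5 members and 4771 genes had an unadjusted p under 0.05. Apart from Spry1, the members had fitted differences above 0 with HMSNPs except for Dusp2 (-0.30, adjusted p = 0.257). The same held without Control replicate 3 (Dusp2 -0.10, adjusted p = 0.759). With SNP100, 0 members were called by edgeR, beside 0.912% of all tested genes. At an unadjusted p under 0.05 there were 2 members and 2085 genes in all, and DESeq2 called 0 members. With SNP50, edgeR called 0 members, beside 1.41% of all tested genes. Here 1 member and 2384 genes had an unadjusted p under 0.05, and DESeq2 again called 0 members. The median log2 fold change of the 9 members other than Spry1 was 0.00 with SNP100, -0.09 with SNP50, 0.02 with MSNP and 0.28 with HMSNP, where the medians of all tested genes were -0.02, -0.00, -0.05 and -0.04. These 4 comparisons share the control libraries. Without Control replicate 3 the member medians were -0.08 with SNP100, -0.16 with SNP50, -0.19 with MSNP and 0.18 with HMSNP, so that the MSNP median changed sign. The members called were then 3 higher and 3 lower with MSNPs beside 29.5% of all tested genes, 3 higher with HMSNPs beside 8.66%, 2 lower with SNP50 beside 18.9%, and 0 with SNP100 beside 5.16%. In bulk RNA, a change in the amount of RNA per cell and a change in the share of cells holding it cannot be told apart.

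**Figure D2:**
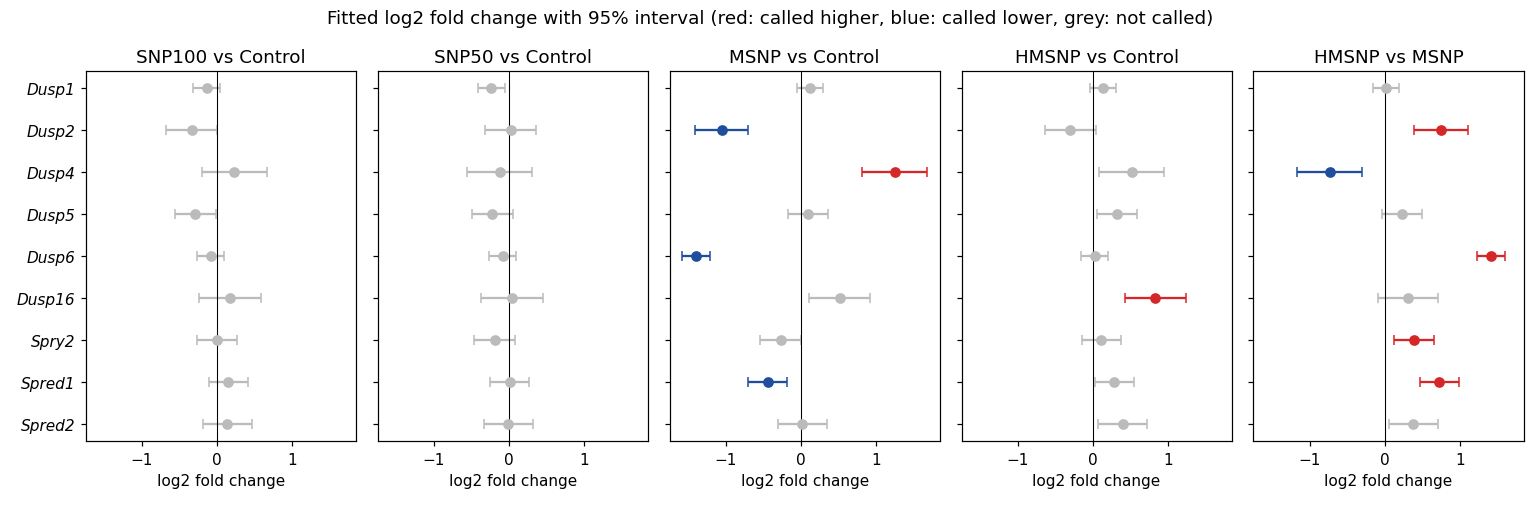
Fitted log2 fold change (horizontal axis) of 9 of the 10 genes in 5 comparisons, with its 95% interval; Spry1, near 0 counts, is left out. Dusp6 at -1.39, Dusp2 at -1.06, Spred1 at -0.44 and Dusp4 at 1.25 were called in MSNP against the controls, Dusp16 at 0.83 in HMSNP, and no member with SNP100 or SNP50.

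Dusp6 encodes the cytoplasmic phosphatase that acts on ERK with high selectivity, and its transcript is widely read as a sign of ERK activity. It measured 20.7, 20.2 and 22.9 CPM in the nontreated controls, 19.1, 18.4 and 22.7 CPM with SNP100, and 19.9, 20.4 and 19.9 CPM with SNP50. With HMSNPs it was 20.5, 23.1 and 21.3 CPM, and with MSNPs 7.97, 8.18 and 8.12 CPM. The MSNP libraries lay below all 12 others, and the other 4 groups overlapped one another apart from SNP50 and HMSNP. The fall against the controls was -1.39 on the log2 scale (SE 0.0887, adjusted p = 1.54e-08) or 2.63-fold. It was -1.33 (adjusted p = 7.45e-10) without Control replicate 3, and its lowest and highest values over 22 alternative settings were -1.43 and -1.33, called in each. For HMSNPs the difference from the controls was 0.03, with a 95% interval from -0.15 to 0.21, and 0.08 without Control replicate 3 (adjusted p = 0.617).

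Dusp4 encodes a nuclear phosphatase induced by ERK signaling, which acts on ERK, JNK and p38. It measured 68.8, 80.0 and 33.5 CPM in the controls, 72.7, 69.1 and 71.9 CPM with SNP100, and 53.8, 55.6 and 57.8 CPM with SNP50. With HMSNPs it was 88.0, 89.7 and 83.5 CPM, and with MSNPs 149, 144 and 139 CPM. The MSNP libraries lay above all others, and the HMSNP libraries above those of SNP100, SNP50 and the controls, while these last 3 groups overlapped one another apart from SNP100 and SNP50. With MSNPs Dusp4 rose 2.38-fold against the controls (log2 fold change 1.25, SE 0.205, adjusted p = 3.07e-04). Control replicate 3 was lower than the other controls by 1.15 on the log2 scale, whereas genes of like transcript length were higher by a median of 0.14. Without it the rise was 0.96 (adjusted p = 9.61e-10). With HMSNPs the difference was 0.52 (adjusted p = 0.144), or 0.23 without Control replicate 3 (adjusted p = 0.0298) and 0.78 without Control replicate 2 (adjusted p = 0.0127). With SNP50 it was -0.12 (adjusted p = 0.885), and -0.42 without Control replicate 3 (adjusted p = 2.34e-04).

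Dusp2 encodes a nuclear phosphatase abundant in immune cells, which acts on ERK and p38. It measured 7.03, 5.90 and 9.40 CPM in the controls, 5.36, 5.23 and 7.12 CPM with SNP100, and 7.53, 6.86 and 8.32 CPM with SNP50. It was 5.97, 6.44 and 5.75 CPM with HMSNPs and 3.67, 3.24 and 3.85 CPM with MSNPs. The MSNP libraries were again below all others, and the remaining groups overlapped with their neighbours in the order of means. With MSNPs Dusp2 fell by 1.06 on the log2 scale (SE 0.167, adjusted p = 2.22e-04), 2.08-fold. Without Control replicate 3, its highest control, it fell by 0.84 (adjusted p = 1.45e-04).

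Dusp1 and Dusp5, the other nuclear phosphatases, were not called against the controls in any treated group. Dusp1, which prefers p38 and JNK, lay between 14.7 and 21.1 CPM over all 15 libraries. Its log2 fold change was 0.12 with MSNPs (95% interval -0.06 to 0.29, adjusted p = 0.332), and 0.20 without Control replicate 3 (adjusted p = 0.0459). It was 0.14 with HMSNPs, -0.14 with SNP100 and -0.23 with SNP50, and 0.21, -0.07 and -0.16 without Control replicate 3, none of them called. Dusp5, which acts on ERK, lay between 5.33 and 9.94 CPM. Its difference was 0.09 with MSNPs (95% interval -0.18 to 0.36), or 0.25 without Control replicate 3 (adjusted p = 0.0986). It was 0.32 with HMSNPs (adjusted p = 0.143), where it became 0.47 without Control replicate 3 (adjusted p = 0.00874). The nuclear phosphatases Dusp1, Dusp2 and Dusp4 had fitted differences of 0.12, -1.06 and 1.25 in the same MSNP libraries.

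Dusp16 encodes a phosphatase with preference for JNK and p38. It measured 16.5, 19.8 and 9.32 CPM in the controls, 15.9, 18.2 and 17.2 CPM with SNP100, and 13.1, 16.7 and 16.9 CPM with SNP50. It was 22.2, 22.6 and 20.3 CPM with MSNPs and 27.4, 28.3 and 25.4 CPM with HMSNPs. The HMSNP libraries lay above all others and the MSNP libraries above the remaining groups. Dusp16 was the member called with HMSNPs, where it rose 1.78-fold (log2 fold change 0.83, SE 0.190, adjusted p = 0.0199). The call was lost without HMSNP replicate 1 (0.83, adjusted p = 0.0799), without HMSNP replicate 2 (0.80, adjusted p = 0.0794) and in a fit of only the 6 libraries compared (adjusted p = 0.326). Control replicate 3 lay 0.95 below the other controls on the log2 scale, and the rise was 0.57 without it (adjusted p = 0.00123). With MSNPs the difference was 0.52 (adjusted p = 0.0647), 0.27 without Control replicate 3 (adjusted p = 0.0608) and 0.76 without Control replicate 2 (adjusted p = 0.00528). DESeq2 called it there as well (adjusted p = 0.0450).

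Of the Sprouty genes, only Spry2 was abundant enough for its differences to be given. Spry2, an inhibitor of receptor tyrosine kinase signaling to Ras, lay between 2.51 and 4.02 CPM in all libraries and was not called against the controls in any group. Its log2 fold change was -0.27 with MSNPs (95% interval -0.54 to -0.00, adjusted p = 0.145) and 0.12 with HMSNPs (95% interval -0.15 to 0.38), or 0.04 there without Control replicate 3 (adjusted p = 0.918). Spry1, its closest relative here, stayed at 8 counts or fewer in every library, too few to show whether it differed.

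Spred1, which brings the Ras inhibitor neurofibromin to the plasma membrane, measured 379, 427 and 268 CPM in the controls, 406, 382 and 399 CPM with SNP100, and 332, 380 and 369 CPM with SNP50. It was 448, 447 and 412 CPM with HMSNPs and 267, 265 and 259 CPM with MSNPs. The highest MSNP library and Control replicate 3 lay next to each other, at 267 and 268 CPM, whereas the other 11 libraries lay well above. Spred1 fell by 0.44 with MSNPs (SE 0.121, adjusted p = 0.0158), 1.36-fold, and by 0.60 without Control replicate 3 (adjusted p = 6.15e-07). The call was lost without Control replicate 1 (adjusted p = 0.0789), without Control replicate 2 (-0.29, adjusted p = 0.0582), without MSNP replicate 1, 2 or 3 (adjusted p = 0.0705, 0.0666 and 0.0735) and in the fit of only 6 libraries (adjusted p = 0.151). With HMSNPs the difference was 0.28 (adjusted p = 0.173), 0.11 without Control replicate 3 (adjusted p = 0.344) and 0.45 without Control replicate 2 (adjusted p = 0.0145).

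Spred2, the second Spred gene, was not called with any particle. It lay between 43.9 and 78.0 CPM in the controls, between 63.9 and 66.2 CPM with MSNPs and between 81.6 and 90.4 CPM with HMSNPs. Its difference with MSNPs was 0.02 (95% interval -0.31 to 0.34), and -0.19 without Control replicate 3 (adjusted p = 0.0704). With HMSNPs it was 0.40 (adjusted p = 0.136), 0.18 without Control replicate 3 (adjusted p = 0.154) and 0.58 without Control replicate 2 (adjusted p = 0.0168). With SNP50 it was -0.01, and -0.23 without Control replicate 3 (adjusted p = 0.0422).

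**Figure D3:**
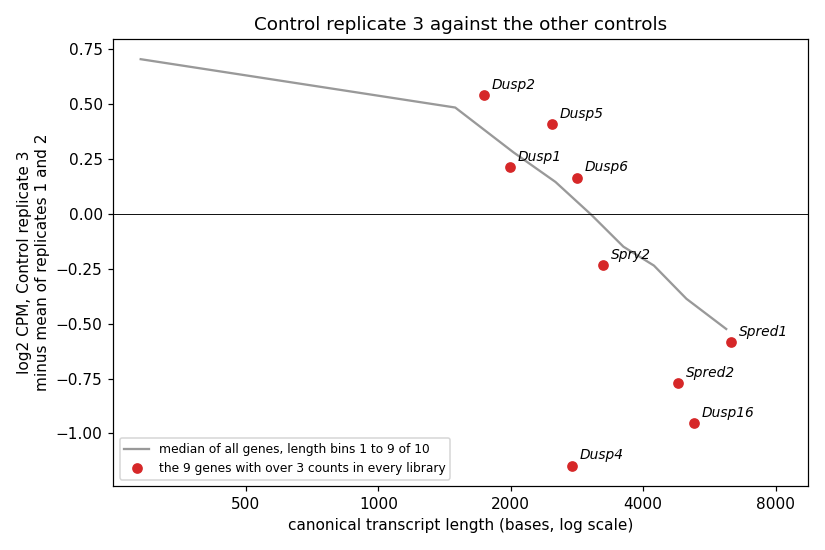
Log2 CPM of Control replicate 3 minus the mean of Control replicates 1 and 2 (vertical axis) against canonical transcript length in bases (horizontal log axis), as points for 9 of the 10 genes and as a line for the median of all genes in the 9 shortest of 10 length bins. The line falls from 0.70 to -0.52, Dusp2, Dusp1 and Spred1 lie near it, and Dusp4 at -1.15 and Dusp16 at -0.95 lie far below it.

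Hollow and mesoporous particles were compared at the same dose and nominal diameter, and the control libraries entered this comparison only through the normalization and the shared estimate of spread. Of the 10 members, 5 were called between HMSNP and MSNP, 4 higher and 1 lower with HMSNPs, beside 20.2% of all tested genes (9.22% higher and 11% lower). The phosphatases Dusp6 and Dusp2 were higher with HMSNPs by 1.42 (SE 0.0886, adjusted p = 1.41e-08) and 0.76 (SE 0.168, adjusted p = 0.00399) on the log2 scale. Spred1 was higher by 0.72 (SE 0.122, adjusted p = 4.12e-04), and for these 3 genes the libraries of the groups did not overlap and the call held in all 22 alternatives. Dusp4 was lower with HMSNPs, with a log2 difference of -0.73 (SE 0.202, adjusted p = 0.0174). This call was lost without MSNP replicate 1, MSNP replicate 2, HMSNP replicate 1 or HMSNP replicate 3 (adjusted p = 0.0640, 0.0566, 0.0661 and 0.0656), although the value stayed between -0.75 and -0.69. Without Control replicate 3 the Dusp4 difference was -0.74 (SE 0.0545, adjusted p = 4.31e-09). Its HMSNP and MSNP libraries did not overlap.

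Spry2 was higher with HMSNPs by 0.39 (SE 0.125, adjusted p = 0.0410), which held in 11 of 22 alternatives. It was 0.29 without MSNP replicate 1 (adjusted p = 0.203), and the call was also lost without MSNP replicate 3 (adjusted p = 0.111), without HMSNP replicates 1, 2 or 3 (0.126, 0.0771 and 0.0765), without SNP100 replicates 1 or 3 (0.0537 and 0.0525) and without SNP50 replicate 1 (0.0616). DESeq2 gave it an adjusted p of 0.0523. The Spry2 call held without Control replicate 3 (0.37, adjusted p = 0.0194). The members not called were Dusp1 at 0.02 (95% interval -0.15 to 0.20), Dusp5 at 0.23 (-0.04 to 0.49), Dusp16 at 0.31 (-0.09 to 0.71) and Spred2 at 0.38 (0.06 to 0.71). Without Control replicate 3, Dusp16 (adjusted p = 0.0122) and Spred2 (adjusted p = 2.25e-04) were called as well, and the share of all tested genes called rose to 33.9%. Spred2 was also called without Control replicate 2 (adjusted p = 0.0454).

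MSNP and SNP100 share their nominal diameter and differ in porosity and in dose, at 200 and 50 µg/mL. Of the members, 6 were called between them, 3 higher and 3 lower with MSNPs, beside 17.9% of all tested genes (10.4% higher and 7.53% lower). Dusp6 (-1.31, adjusted p = 4.93e-08), Dusp4 (1.02, adjusted p = 0.00210), Spred1 (-0.59, adjusted p = 0.00281) and Dusp2 (-0.72, adjusted p = 0.00683) were called in each of 22 alternatives. Dusp1 was higher with MSNPs by 0.26 (adjusted p = 0.0422) and Dusp5 by 0.39 (adjusted p = 0.0481). The Dusp1 call was lost when any SNP100 or MSNP library or SNP50 replicate 2 was left out (adjusted p = 0.0560 to 0.123). The Dusp5 call was lost without SNP100 replicates 1 or 2, any SNP50 or MSNP library, or HMSNP replicates 2 or 3 (adjusted p = 0.0533 to 0.185). Both calls held without Control replicate 3, for Dusp1 at 0.27 (adjusted p = 0.00330) and for Dusp5 at 0.40 (adjusted p = 0.00375). Dusp16, at 0.34 (adjusted p = 0.259), was called without Control replicate 3 (0.36, adjusted p = 0.00522), where 33.1% of all tested genes were called.

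The nonporous particles differed in diameter and dose. Between SNP50 and SNP100, edgeR called 0 members and 0 of all tested genes, or 0%. At an unadjusted p under 0.05 there were 2 members and 867 genes in all, and DESeq2 called 0 members and 1 gene. The member differences ranged from -0.35 for Dusp4 (95% interval -0.79 to 0.08) to 0.36 for Dusp2 (0.02 to 0.70), without Spry1. Without Control replicate 3, Dusp4 was called at -0.36 (adjusted p = 0.0295), and edgeR called 85 of all tested genes, or 0.433%.

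The start regions of 3 of the phosphatase genes are shown because the genes behaved differently in the MSNP libraries, Dusp4 rising, Dusp6 falling and Dusp1 not being called. The sequences are the 250 bases before the start of the canonical transcript in GRCm39, written along the strand of the gene. Dusp1 is at chr17:26727494-26727743 on the minus strand, Dusp4 at chr8:35274192-35274441 on the plus strand and Dusp6 at chr10:99098818-99099067 on the plus strand. Capitals mark matches on either strand to a cAMP response element (CRE, TGACGTCA), its half-site (TGACG), an E-box (CACGTG) and a GC box (GGGCGG). The motifs AP-1 (TGANTCA) and ETS (CCGGAA) were also searched.
Dusp1: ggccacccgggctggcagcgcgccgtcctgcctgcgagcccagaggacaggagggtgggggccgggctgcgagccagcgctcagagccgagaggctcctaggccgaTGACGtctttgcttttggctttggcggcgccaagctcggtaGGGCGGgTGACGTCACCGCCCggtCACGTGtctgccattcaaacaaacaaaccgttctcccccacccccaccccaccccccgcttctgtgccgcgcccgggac
Dusp4: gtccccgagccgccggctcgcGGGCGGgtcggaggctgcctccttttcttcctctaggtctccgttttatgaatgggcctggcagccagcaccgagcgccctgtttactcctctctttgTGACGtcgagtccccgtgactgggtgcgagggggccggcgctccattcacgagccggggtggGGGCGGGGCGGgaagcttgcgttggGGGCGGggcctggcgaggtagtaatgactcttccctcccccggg
Dusp6: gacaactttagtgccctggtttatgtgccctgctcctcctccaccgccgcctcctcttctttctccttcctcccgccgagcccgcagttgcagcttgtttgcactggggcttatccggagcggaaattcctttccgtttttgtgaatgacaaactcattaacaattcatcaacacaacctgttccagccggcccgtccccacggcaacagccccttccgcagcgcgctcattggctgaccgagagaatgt

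The Dusp1 region held a full CRE 96 bases before the start, an E-box at 79 bases, GC boxes at 103 and 88 bases, and a further half-site at 144 bases. The CRE contains the half-site on both strands. The Dusp4 region held a half-site at 131 bases and GC boxes at 229, 69, 64 and 44 bases, and the Dusp6 region held none of these motifs. Among the regions of 13135 protein-coding genes tested, 2.06% held the CRE, 22.8% the half-site, 7.67% the E-box and 47.9% the GC box. AP-1 letters were in 4.58% and ETS letters in 17.5% of regions and in none of the 10 members' regions. The GC content was 70% for Dusp1, 68.4% for Dusp4 and 56% for Dusp6.

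Other genes of the pathway were taken by symbol from 6 lists, which were chosen with earlier results of these data known. For single genes of these lists, 25 differences from the controls are given with an adjusted p. All 25 kept their direction and call without Control replicate 3, and 1, that of Map3k1, moved by over 1.5 times. Among other phosphatases and Sprouty relatives, 14 genes were listed and 11 tested. With MSNPs 3 were higher and 2 lower, beside 11.8% and 11% of all tested genes, and with HMSNPs 1 was lower, beside 2.7%. Dusp8, a JNK and p38 phosphatase, rose from 0.152 ± 0.0217 to 1.30 ± 0.0709 CPM with MSNPs (log2 fold change 3.07, adjusted p = 4.84e-07). Dusp3, an abundant small phosphatase that acts on ERK and JNK, rose from 161 ± 8.67 to 310 ± 5.73 CPM (0.94, adjusted p = 1.83e-08). The tyrosine phosphatase Ptpn5, which also inactivates ERK and p38, fell from 2.39 ± 0.0892 to 0.920 ± 0.137 CPM (-1.38, adjusted p = 2.17e-04). Dusp9, an ERK phosphatase, fell with HMSNPs by 0.62 on the log2 scale from 2.31 ± 0.0841 CPM in the controls (adjusted p = 0.0182), and this list had 0 lower genes there without Control replicate 1 or HMSNP replicates 1 or 3, and in the fit of only the 6 libraries compared.

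Of 22 transcripts known to be induced by ERK, 13 were lower and 4 higher with MSNPs, beside 11% and 11.8% of all tested genes. The median log2 fold change of the 22 was -0.53, where all tested genes had -0.05. Without Control replicate 3 the counts were 13 and 4 as well and the median -0.44, and over all alternatives 10 to 14 were lower. Fos, the immediate early transcription factor, fell from 104 ± 7.97 to 10.1 ± 0.512 CPM (-3.37, adjusted p = 1.11e-11), and Egr3 fell from 4.13 ± 0.626 to 0.952 ± 0.277 CPM (-2.10, adjusted p = 2.31e-06). Hbegf, a ligand of the EGF receptor, went the other way, with 35 to 40 counts in the MSNP libraries against 2 to 3 in the controls (adjusted p = 5.82e-07). Jun, Klf6 and Egr2 were also called higher, and Fosl1, Egr1, Ier3, Etv4 and Etv5 were not called with MSNPs. With HMSNPs 4 of the 22 were higher and 1 lower, beside 2.46% and 2.7% of all tested genes. Over the alternatives 1 to 6 were higher and 0 to 4 lower, with 1 higher and 0 lower in the fit of only the 6 libraries compared, 6 higher and 1 lower without Control replicate 3, 4 lower without Control replicate 2 and 2 lower without SNP100 replicate 3. Egr1 rose from 13.1 ± 0.628 to 24.5 ± 2.22 CPM (0.90, adjusted p = 0.00370) and Fosl2 fell from 174 ± 39.3 to 85.9 ± 4.10 CPM (-1.02, adjusted p = 1.77e-04). Between HMSNPs and MSNPs, 15 of the 22 were higher and 4 lower with HMSNPs, beside 9.22% and 11% of all tested genes. The median log2 fold change of the 22 was 0.65, where all tested genes had 0.00. Dusp6 was lower in the same MSNP libraries as the 13 transcripts called lower, and Dusp4 was higher there. The libraries hold RNA only, and whether ERK activity changed was not tested.

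The kinases and scaffolds of the cascades moved in both directions with MSNPs, where 22.8% of all tested genes were called. In the Ras and ERK cascade, 5 of 20 genes were higher and 4 lower. These included Mknk2, a kinase downstream of ERK and p38, at 0.99 (adjusted p = 2.61e-09), Mknk1 at 0.56 (adjusted p = 1.08e-04) and the scaffold Ksr1 at -0.78 (adjusted p = 0.0406). In the JNK and p38 cascade 1 of 19 was higher and 6 were lower, among them Rps6ka5, which encodes the kinase MSK1, at -1.02 (adjusted p = 2.76e-06) and the p38 kinase kinase Map2k3 at -0.65 (adjusted p = 4.23e-05), with Map3k1 higher at 0.61 (adjusted p = 0.0192). The Map3k1 difference was 0.38 without Control replicate 3 (adjusted p = 0.00250), and its call was lost without MSNP replicate 1 or 2. With HMSNPs edgeR called 0 genes of either cascade, beside 5.16% of all tested genes. Without adjustment 4 Ras and ERK genes and 7 JNK and p38 genes passed 0.05, and by DESeq2 3 and 1 were called. These counts turned on the controls: in the Ras and ERK cascade 4 genes were higher with HMSNPs without Control replicate 3 and 7 without Control replicate 2, and in the JNK and p38 cascade 6 were higher without Control replicate 2. With MSNPs the Ras and ERK genes called higher numbered 8 without Control replicate 2 or 3, and those called lower 1 without Control replicate 1 or MSNP replicate 2 and 2 without MSNP replicates 1 or 3, SNP100 replicate 1 or SNP50 replicate 1. In the fit of only the 6 libraries compared, 2 Ras and ERK genes were higher and 1 lower with MSNPs, and 0 JNK and p38 genes were higher and 3 lower.

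Of 18 Ras GTPase-activating proteins and other inhibitors, 4 were higher and 5 lower with MSNPs, beside 11.8% and 11% of all tested genes. Trib1, a pseudokinase that binds MAP kinase kinases, fell from 30.9 ± 2.56 to 4.30 ± 0.429 CPM (-2.85, adjusted p = 5.77e-11). The adaptor Dok2 (-1.09, adjusted p = 4.19e-06) and the Ras GTPase-activating protein Rasa2 (-1.04, adjusted p = 1.97e-05) also fell. With HMSNPs, beside 2.46% of all tested genes, 2 were higher, Dok2 at 0.50 (adjusted p = 0.0206) and the phosphatase Ptpn6 at 0.23 (adjusted p = 0.0352). Without Control replicate 2 or 3 this became 6 or 4 higher and 1 lower, without SNP50 replicate 2 or HMSNP replicate 1 it became 1, and without HMSNP replicate 2 or 3 it became 0. With MSNPs the lower count was 8 without Control replicate 3, and the higher count 2 without MSNP replicate 2. With only the 6 libraries compared, 2 were higher with MSNPs and 0 with HMSNPs.

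Among 16 receptors and ligands, 11 were tested. With MSNPs 1 was higher and 4 lower, beside 11.8% and 11% of all tested genes. With HMSNPs 2 were higher and 3 lower, beside 2.46% and 2.7%. Without any 1 HMSNP library only 1 was higher there, and 0 in the fit of only the 6 libraries compared, and without Control replicate 2 there were 2 higher with MSNPs. Csf1, the macrophage growth factor, rose with MSNPs from 0.565 ± 0.142 to 4.29 ± 0.801 CPM (2.93, adjusted p = 5.29e-07). Areg, a ligand of the EGF receptor, had 30 to 60 counts in the controls and 2 to 3 with MSNPs (adjusted p = 6.25e-06), and its relative Ereg had 1 to 5 counts in the controls and 0 in each MSNP library (adjusted p = 0.0372). With HMSNPs Areg fell by 1.88 (adjusted p = 0.00314) and Pdgfa by 1.38 (adjusted p = 2.55e-05) on the log2 scale. Of the 9 macrophage markers, 5 were lower and 1 higher with MSNPs, beside 11% and 11.8% of all tested genes. With HMSNPs edgeR and DESeq2 called 0 of the markers, where edgeR called 5.16% of all tested genes. There 1 marker had an unadjusted p under 0.05, and 1 was called higher by edgeR without Control replicate 2 or 3. The part of these markers in the member differences was not tested.

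**Figure D4:**
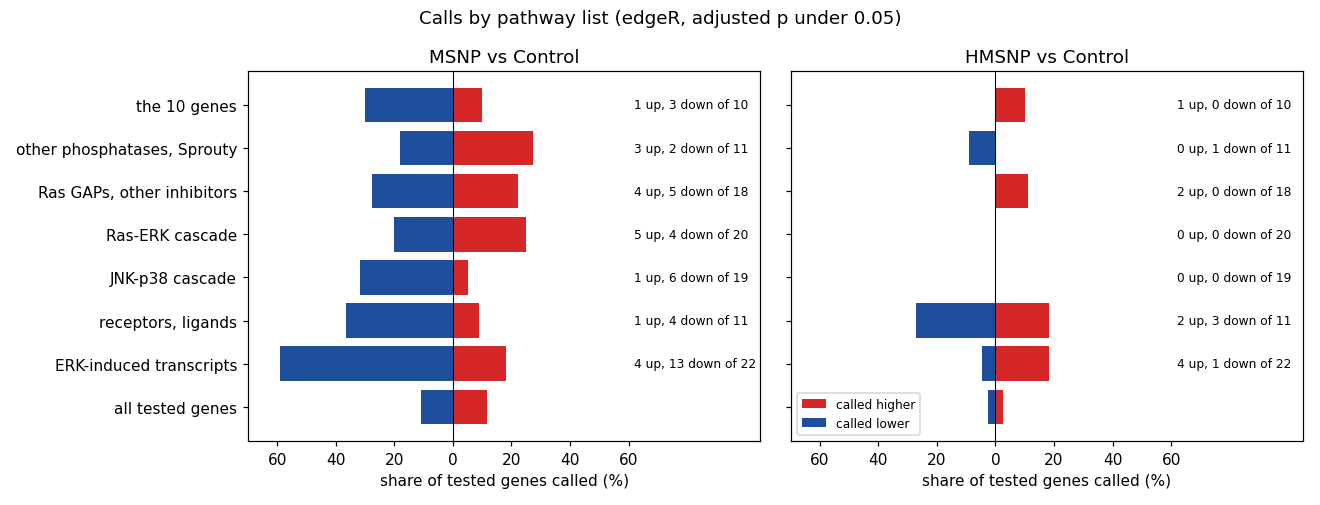
Share of tested genes called higher (red, to the right) or lower (blue, to the left) in percent (horizontal axis) for the 10 genes, 6 other pathway lists and all tested genes, in MSNP and in HMSNP against the controls. The longest bar is that of the ERK-induced transcripts called lower with MSNPs, 13 of 22, whereas 11% of all tested genes were called lower there. The lists were chosen with earlier results of these data known.

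The genes most like Dusp6, Dusp4 and Dusp2 over the 15 libraries were searched among 11539 genes with a mean of at least 1 CPM, by the root mean square difference of log2 CPM centred on the control mean. Closest to Dusp6 was Tlr2, the Toll-like receptor for bacterial lipoproteins, at a distance of 0.0659. It fell from 396 ± 25.6 CPM in the controls to 146 ± 1.45 CPM with MSNPs and was at 400.2 CPM with HMSNPs. P2ry6 (0.132) and Endod1 (0.141) came next. For Dusp4 they were Rybp (0.120), St3gal1 (0.128) and Myo1d (0.137), and for Dusp2 they were Junb (0.131), Samd1 (0.137) and Pdlim2 (0.142). The libraries enter both profiles of each pair, so that any trait of a library, such as that of Control replicate 3, is shared by both.

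Several members overlap other genes in GENCODE vM39 on GRCm39. Dusp6, at chr10:99086564-99103361 on the plus strand, shares 685 and 94 exonic bases with 2 antisense long noncoding RNAs that held 2 and 12 counts over all libraries. Dusp1 shares 38 exonic bases with Ergic1 on the opposite strand, which held 101090 counts against 9352 for Dusp1. Dusp5 and Dusp16 each overlap an antisense noncoding gene with 9 counts. Whether the counting used strand is not given in the sources used here, so that reads in these shared stretches may be split between the partners. Dusp2 shares 615 and 64 exonic bases, and Spry2 shares 564, with antisense long noncoding RNAs that are not in the count table. Spry1 shares 909 with an antisense gene that held 0 counts. Dusp4, at chr8:35274442-35287048 on the plus strand, and Spred1, at chr2:116951524-117018277 on the plus strand, share no exonic bases with an annotated gene.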

How the data were processed

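RNA sequencing was performed on 15 libraries of RAW 264.7 cells, 3 in each of 5 groups, assigned from the sample labels; doses came from the study's methods. The submitters' processing notes name cutadapt 1.16, STAR 2.7.9a and featureCounts 1.6.3 on GRCm39. The annotation release and strand setting are not given in the sources used here. The authors deposited raw counts per gene, without normalization and with replicates kept apart, for 57186 identifiers, of which 56630 matched GENCODE vM39. The other 556 held 0.0224% of counts.

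Genes whose counts summed to 10 or more were tested with edgeR 4.0.16 in R 4.3.3 by its quasi-likelihood test, after TMM normalization, in 1 model of all 15 libraries without a replicate block. P-values were adjusted by Benjamini and Hochberg at 0.05. The 7 comparisons were each treated group against the controls, HMSNP against MSNP, and MSNP and SNP50 against SNP100. CPM used TMM factors, and log2 CPM a prior count of 2. Each standard error is the absolute log2 fold change divided by the square root of F. No fold is given against a group with 3 counts or fewer in each library. The steps were tested on simulated data.

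Alternatives were DESeq2 1.42.0, RLE factors, filterByExpr, no filter, only 6 libraries, the replicate number as a block, an offset removing the trend with transcript length (lowess span 0.3, genes with a mean log2 CPM above 1), and each library left out in turn. Applying them to the pathway lists, and the member medians and shares of genes called without Control replicate 3, were added after seeing the data. The members and lists were chosen with earlier results of these data known, as were the motifs. Named were all 10 members, the 3 closest genes of members called at an absolute log2 fold change of at least 1, and per list up to 3 genes called with MSNPs and up to 2 with HMSNPs, by size of change. The ERK-induced transcripts called higher or not called with MSNPs were also named. Start regions and positions came from GRCm39 and GENCODE vM39. Counts per library, at 29369934 to 42617812, limit the precision of low genes such as Spry1. The authors' other assays were not used here.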

Additional observations from a re-analysis of the deposited data

How the results depend on the processing

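Of 1386 alternative values for 63 member differences, 1273 kept their direction and side of the threshold, 43 changed sign without being called in either fit, 44 lost the call, 26 gained it, and 0 changed sign where either fit called them. The number of members called in HMSNP against the controls was 0 with only the 6 libraries compared and 3 with the length-trend offset (Dusp16, Dusp1 at 0.26 and Dusp5 at 0.39), and lay between 0 and 4 when 1 library was left out, against 1. It was 0 without HMSNP replicate 1 or 2, 4 without Control replicate 2 and 3 without Control replicate 3. The share of all tested genes called moved as well, from 5.16% to 10.2% with the length-trend offset and to 8.66% without Control replicate 3. Between HMSNP and MSNP the number of members called was 8 with only the 6 libraries and 3 to 7 with 1 library left out, against 5. It was 3 without MSNP replicate 1, HMSNP replicate 1 or HMSNP replicate 3. In SNP50 against the controls it lay between 0 and 2, and between SNP50 and SNP100 between 0 and 1, the higher values both without Control replicate 3. The cause was not tested. In MSNP against the controls the number of members called lay between 3 and 6, and in MSNP against SNP100 between 4 and 7. The share of all tested genes called also moved in these comparisons. Between HMSNP and MSNP it was 20.2%, and 33.9% without Control replicate 3. In MSNP against the controls it was 22.8% and 29.5%, and in MSNP against SNP100 17.9% and 33.1%. Shares for the fit of only 6 libraries, the replicate block and other libraries left out are not given here.

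Over all tested genes, DESeq2 called 496 genes with SNP100, 680 with SNP50 and 1945 with HMSNP, against 181, 280 and 1024 by edgeR, and without Control replicate 3 edgeR called 1012, 3713 and 1699. Without that library it also called 6644 between HMSNP and MSNP, 6483 between MSNP and SNP100 and 85 between SNP50 and SNP100. The replicate block changed the calls of Spry2 between HMSNP and MSNP (adjusted p = 0.0546), Dusp1 between MSNP and SNP100 (0.0672) and Dusp16 with MSNP (0.0450), and no other. With it the members called were 4 between HMSNP and MSNP, 5 between MSNP and SNP100 and 5 with MSNP. The labels do not say whether the numbers pair the samples. Deviations of same-numbered libraries correlated between -0.52 and 0.57, above 0.1 in 10 of 30 pairs. For different numbers the range was -0.76 to 0.72, above 0.1 in 21 of 60 pairs. Of the 15 libraries, 6 correlated best with their own number. With 3 libraries in each group these values cannot exclude pairing.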
